A study of Mus musculus with 12 samples.

Results

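The genes described here encode the major histocompatibility complex (MHC) molecules and the proteins that load them with peptide, measured in liver sinusoidal endothelial cells (LSECs) of mice that lacked the scavenger receptors stabilin-1, stabilin-2 or both. They were chosen by name: every gene on the array whose symbol starts with H2-, together with B2m, Tap1, Tap2, Tapbp, Nlrc5, Psmb8, Psmb9, Psmb10, Ciita and Cd74. This gave 49 of the 24011 gene symbols measured, namely 28 class I genes, 8 genes of the class I machinery, 12 class II genes and H2-Ke6. The last carries an H2 symbol because it lies within the complex; it encodes a hydroxysteroid dehydrogenase and is counted apart. The rule used names only.

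The study comprised 12 Affymetrix arrays in 4 genotypes with 3 arrays each: wild type (WT), knockout of Stab1 alone (Stab1KO) or of Stab2 alone (Stab2KO), and the double knockout (DKO). Each array held RNA pooled from 3 mice aged 3 to 4 months, all labelled C57BL/6J, and the LSECs had been taken from perfused liver with beads against CD146, an adhesion molecule of endothelium. The labels name no promoter or inducible allele and do not state whether the mice were littermates. All values are log2 expression values, so that a difference of 1 is a doubling, and a p-value reflects the spread between pools of mice.

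Class I molecules pair a heavy chain with beta-2-microglobulin and display peptides that the immunoproteasome has cut and the TAP transporter has carried into the endoplasmic reticulum; Nlrc5 is the transactivator of these genes. Class II molecules display peptides from endocytosed material under the control of the transactivator Ciita, with Cd74, the invariant chain, guarding the groove until H2-DM exchanges it for peptide. LSECs are known to take up circulating antigen and to present it on both classes of molecule.

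The targeted genes followed the labels: Stab1 measured at least 12.46 where it was intact and at most 5.45 where it was lost, and Stab2 at least 12.99 and at most 7.60. The mean of the 15 LSEC marker genes, which include both targets, lay between 11.72 and 13.00 in every array. Pairs of arrays correlated at 0.987 or more, except those with DKO replicate 3, at 0.956 to 0.968. There the 12 neutrophil markers averaged 11.73, against 5.07 to 6.32 in the others. The mean of 10 stellate cell markers was 7.55 to 8.16 in WT and 5.56 to 6.44 in the 3 knockouts. In such bulk samples, fewer cells of a type and less RNA per cell cannot be told apart.

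Of the 49 genes, 44 lie on chromosome 17 and 5 elsewhere. Promoters from RefSeq (GRCm38.p6, 300 bases from 250 before to 50 after the start) were found for 37 of them, including 22 class I, 6 machinery and 8 class II genes. Class I promoters classically carry an interferon-stimulated response element and a CCAAT box in inverted orientation. The 250 bases before the start are shown for 2 groups whose expression the results turn on, with the classical gene H2-K1 for reference. Capitals mark ATTGG, the core of the inverted CCAAT box, and GAANNGAAA or GAAANNGAA, letter patterns like the interferon-stimulated response element, each on either strand.
H2-K1: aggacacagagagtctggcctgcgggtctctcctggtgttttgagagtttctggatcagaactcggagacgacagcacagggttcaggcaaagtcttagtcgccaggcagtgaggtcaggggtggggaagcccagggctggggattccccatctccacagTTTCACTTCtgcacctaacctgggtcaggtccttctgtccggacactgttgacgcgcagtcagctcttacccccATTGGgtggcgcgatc
H2-Q6: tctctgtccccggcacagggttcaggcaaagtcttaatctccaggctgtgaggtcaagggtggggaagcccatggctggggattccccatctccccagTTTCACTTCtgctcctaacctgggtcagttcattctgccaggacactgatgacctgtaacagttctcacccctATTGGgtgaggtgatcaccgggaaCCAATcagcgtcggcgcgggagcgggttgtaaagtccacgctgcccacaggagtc
H2-Q7: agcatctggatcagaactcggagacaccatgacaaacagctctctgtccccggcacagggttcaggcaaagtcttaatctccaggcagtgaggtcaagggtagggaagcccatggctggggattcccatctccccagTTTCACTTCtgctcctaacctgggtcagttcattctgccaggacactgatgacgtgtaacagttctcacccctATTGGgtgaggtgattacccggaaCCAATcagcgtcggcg
H2-T22: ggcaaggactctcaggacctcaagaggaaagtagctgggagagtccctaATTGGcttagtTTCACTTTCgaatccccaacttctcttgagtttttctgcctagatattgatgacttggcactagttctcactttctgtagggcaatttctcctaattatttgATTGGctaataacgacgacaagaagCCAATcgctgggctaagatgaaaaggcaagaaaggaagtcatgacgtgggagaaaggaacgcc
H2-T23: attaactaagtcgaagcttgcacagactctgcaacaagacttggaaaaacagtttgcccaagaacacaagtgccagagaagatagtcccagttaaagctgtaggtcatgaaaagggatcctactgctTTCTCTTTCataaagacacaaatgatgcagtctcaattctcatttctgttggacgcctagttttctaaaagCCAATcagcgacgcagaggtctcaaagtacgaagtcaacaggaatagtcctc

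The windows are H2-K1, chr17:34000348-34000597 on the minus strand; H2-Q6, chr17:35424600-35424849 on the plus strand; H2-Q7, chr17:35438905-35439154 on the plus strand; H2-T22, chr17:36042743-36042992 on the minus strand; and H2-T23, chr17:36032702-36032951 on the minus strand. H2-Q6 and H2-Q7 share nearly the whole window: a local alignment matched 254 of 261 columns (97.3%), and a global one, which also counts the offset between the windows, matched 74.7%. H2-T22 and H2-T23 matched each other in 48.4% of the local alignment. The local alignment was added after the global values were seen.

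ATTGG occurred in 19 of 22 class I promoters (86.4%), 4 of 6 machinery promoters (66.7%) and 7 of 8 class II promoters (87.5%), against 37.4% of 32851 promoters of the table. GAAANNGAA occurred in B2m and in 2 class I promoters, H2-T22 and H2-T23 (9.09%), against 8.56% of all. GAANNGAAA, a letter pattern added after the sequences had been seen, occurred in 8 class I promoters (36.4%), against 7.52% of all, and in none of the machinery or class II promoters; H2-K1, H2-D1, H2-Q4, H2-Q6, H2-Q7 and H2-Q10 were among the 8. TTCNNNGAA, the gamma-activated site, occurred in 2 class I, 1 machinery and 1 class II promoter, against 8.3% of all. No promoter of the set held both GAAANNGAA and GAANNGAAA, and a match of letters is a description of the window only.

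The question put to these data was how MHC expression in LSECs differed when either receptor or both were missing. Differences were tested with limma over all 24011 symbols, with Benjamini-Hochberg adjustment within each comparison, and called means an adjusted p below 0.05. The clearest changes were in nonclassical class I genes. In Stab2KO, H2-T23 and H2-Q7 fell and H2-T10 rose against WT, while in DKO H2-Q7 and the transporter gene Tap1 rose. Of these calls, only that of H2-T23 was kept under all 18 alternative settings. In DKO, which also lacks Stab2, H2-T23 overlapped WT (0.10). In Stab1KO against WT none of the 49 genes was called.

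**Figure D1:**
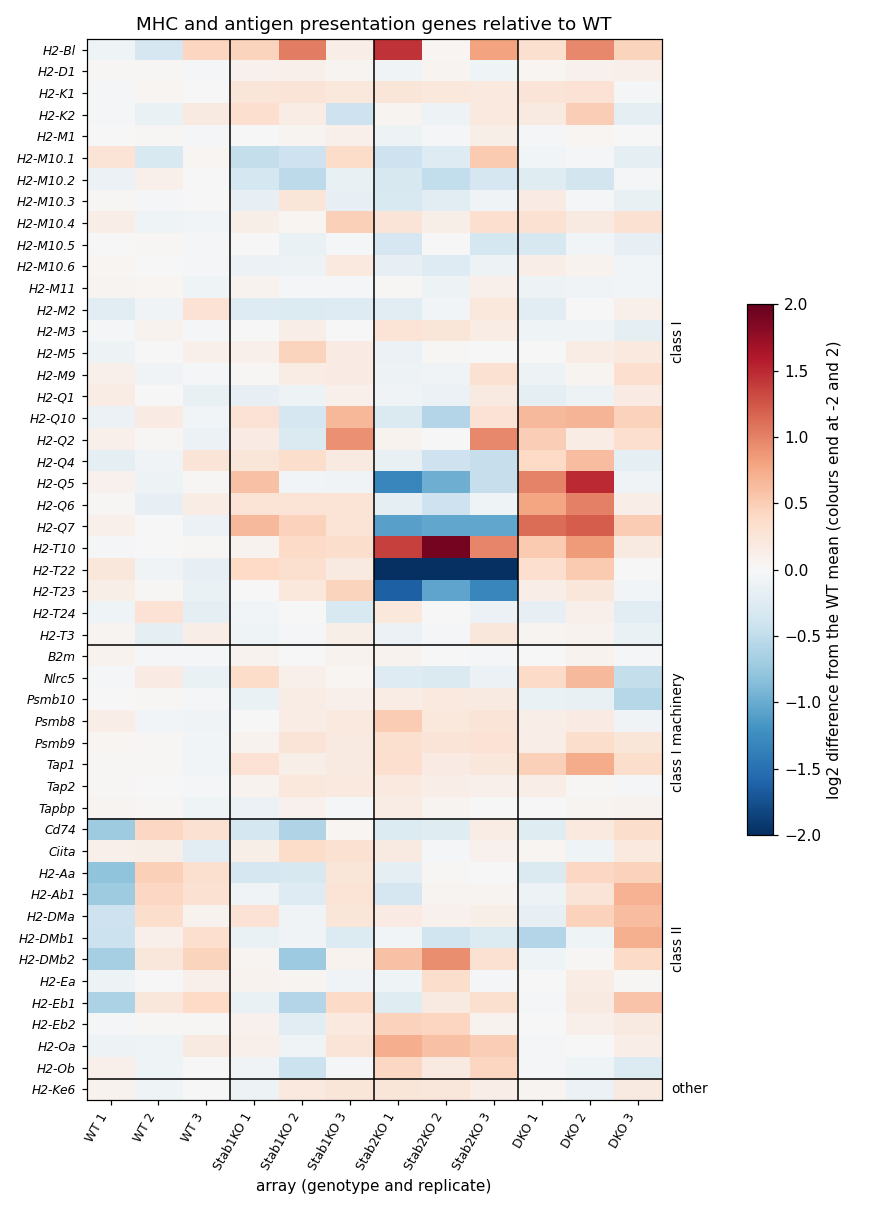
Log2 difference of each of the 49 genes (rows, grouped by class) from the mean of the 3 WT arrays, in each of the 12 arrays (columns); colours end at -2 and 2, and H2-T22 in Stab2KO lies beyond that end. The strongest colours lie in the Q and T rows of the Stab2KO and DKO columns.

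The classical class I genes present peptides of most cellular proteins to CD8 T cells. H2-K1 measured 12.16, 12.24 and 12.21 in WT, 12.45, 12.46 and 12.42 in Stab1KO, 12.45, 12.41 and 12.40 in Stab2KO, and 12.46, 12.49 and 12.17 in DKO. All 6 arrays of the single knockouts lay above the WT arrays, and DKO replicate 3 lay within them. The differences from WT were 0.24 ± 0.09 (SE, n = 3 pools per group here and below), 0.21 ± 0.09 and 0.17 ± 0.09, and none was called (limma adjusted p = 1, 0.57 and 0.35). H2-D1, the other classical gene, ranged from 13.40 to 13.60 over the 12 arrays and differed from WT by 0.09, -0.04 and 0.08.

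H2-T23 encodes Qa-1, which displays leader peptides of other class I chains to CD94/NKG2 receptors. It measured 10.51, 10.42 and 10.26 in WT, 10.41, 10.61 and 10.85 in Stab1KO, 8.77, 9.35 and 9.09 in Stab2KO, and 10.53, 10.62 and 10.34 in DKO. The 3 Stab2KO arrays lay below the other 9, which overlapped among themselves. H2-T23 fell by 1.33 ± 0.16 in Stab2KO against WT (limma adjusted p = 0.0072). It was 1.43 ± 0.16 higher in DKO than in Stab2KO (adjusted p = 0.0031) and 1.55 ± 0.16 higher in Stab1KO than in Stab2KO (adjusted p = 0.0028). These 3 comparisons share the Stab2KO arrays and are not independent of each other.

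H2-T22, a ligand of gamma-delta T cells, had the same order with a wider spread. Its values were 9.89, 9.58 and 9.49 in WT, 10.05, 9.97 and 9.83 in Stab1KO, 3.60, 7.50 and 5.95 in Stab2KO, and 9.98, 10.17 and 9.65 in DKO. All 3 Stab2KO arrays were below every other array, yet they differed from each other by several log2 units, and replicate 1 lay below the array median of 5.12. The difference between Stab2KO and WT was -3.97 ± 0.71 and missed the threshold (limma adjusted p = 0.056). The call was made when Stab2KO replicate 1 was left out (-2.92, adjusted p = 0.021) or replicate 2 (-4.88, adjusted p = 0.0099), and when genes of low signal were filtered out (adjusted p = 0.035). Limma's adjusted p ranged from 0.0099 to 0.24 over all alternatives. Against Stab2KO, H2-T22 was 4.25 ± 0.71 higher in DKO (adjusted p = 0.018), the largest rise among all symbols in that comparison.

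H2-T10, which encodes a close relative of the H2-T22 product and is annotated as a transcribed pseudogene in RefSeq, differed the other way. It measured 6.62, 6.63 and 6.66 in WT, 6.71, 7.03 and 6.99 in Stab1KO, 8.002, 8.55 and 7.62 in Stab2KO, and 7.17, 7.48 and 6.82 in DKO. The Stab2KO arrays lay above all others, and all 9 knockout arrays lay above WT. H2-T10 rose by 1.42 ± 0.22 in Stab2KO against WT (limma adjusted p = 0.027). It was -0.90 ± 0.22 in DKO against Stab2KO, just outside the threshold (adjusted p = 0.051). H2-T10 and H2-T22 are known as near-identical copies, so that a probe set of one can take signal from the other; their part in these opposite differences was not tested.

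The Q genes include the Qa-2 family, to which H2-Q6 and H2-Q7 belong. H2-Q7 measured 8.96, 8.86 and 8.73 in WT, 9.50, 9.30 and 9.12 in Stab1KO, 7.77, 7.81 and 7.81 in Stab2KO, and 9.97, 10.05 and 9.35 in DKO. Stab2KO lay below and both other knockouts above all WT arrays. H2-Q7 fell by 1.05 ± 0.17 in Stab2KO against WT (limma adjusted p = 0.029) and rose by 0.94 ± 0.17 in DKO against WT (adjusted p = 0.021). Between genotypes it was 2.00 ± 0.17 higher in DKO than in Stab2KO (adjusted p = 0.00071) and 1.51 ± 0.17 higher in Stab1KO than in Stab2KO (adjusted p = 0.0054). The rise of 0.46 ± 0.17 in Stab1KO was not called (adjusted p = 1).

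H2-Q6 was 11.33, 11.14 and 11.45 in WT, 11.58, 11.58 and 11.59 in Stab1KO, 11.12, 10.90 and 11.23 in Stab2KO, and 12.10, 12.32 and 11.45 in DKO. In DKO replicates 1 and 2 exceeded every other array and replicate 3 fell within the WT range. H2-Q6 was 0.88 ± 0.19 higher in DKO than in Stab2KO (limma adjusted p = 0.036), and its difference of 0.64 ± 0.19 from WT was not called (adjusted p = 0.12). H2-Q5, a transcribed pseudogene in RefSeq, measured 9.44, 9.25 and 9.38 in WT, 9.94, 9.29 and 9.29 in Stab1KO, 8.05, 8.38 and 8.89 in Stab2KO, and 10.34, 10.85 and 9.28 in DKO. Again DKO replicate 3 lay with WT and replicates 1 and 2 above it. H2-Q5 was 1.72 ± 0.35 higher in DKO than in Stab2KO (adjusted p = 0.032), with -0.91 in Stab2KO and 0.80 in DKO against WT, neither called. Several Q genes are close copies, so that a value can hold signal of another copy; the identity of their transcripts was not computed here.

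**Figure D2:**
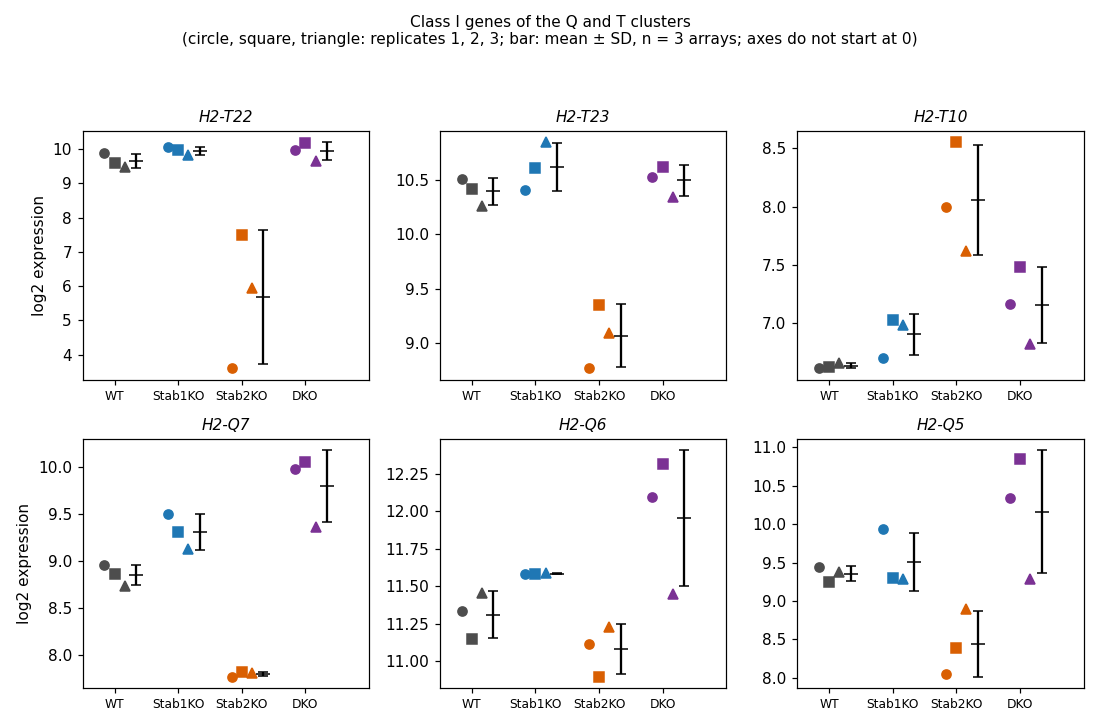
Log2 expression of H2-T22, H2-T23, H2-T10, H2-Q7, H2-Q6 and H2-Q5 in each array by genotype; circle, square and triangle are replicates 1, 2 and 3, and bars give mean ± SD of 3 arrays on axes that do not start at 0. The Stab2KO arrays form the lowest group for H2-T22, H2-T23 and H2-Q7 and the highest for H2-T10; DKO replicate 3 lies below the other DKO arrays in all 6 genes.

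Without DKO replicate 3, the array rich in neutrophil transcripts, the DKO values of H2-Q5, H2-Q6, H2-Q7 and Tap1 against WT were larger. Not every Q gene moved this way: H2-Q2 was 0.32 with and without it, and H2-Q1 went from -0.05 to -0.16. H2-Q7 was then 1.16 higher (limma adjusted p = 0.00096), H2-Q6 0.90 (adjusted p = 0.0067), H2-Q5 1.24 (adjusted p = 0.046) and Tap1 0.61 (adjusted p = 0.016), with 424 genes (1.77%) called in all. Against Stab1KO, H2-Q6 (0.63, adjusted p = 0.038) and H2-Q7 (0.71, adjusted p = 0.018) were called only under this omission among those tried. The share of all genes called in that comparison is not given here. Against Stab2KO, H2-Q4 (0.85, adjusted p = 0.018) and Nlrc5 (0.74, adjusted p = 0.023) were added and H2-M3 was no longer called (adjusted p = 0.067). Calls over all genes against Stab2KO were then 821 (3.42%). The neutrophil signal's part in the values of that array was not tested.

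H2-M3, which presents N-formylated peptides of bacteria and mitochondria, measured 9.34, 9.43 and 9.31 in WT, 9.37, 9.49 and 9.38 in Stab1KO, 9.63, 9.61 and 9.50 in Stab2KO, and 9.27, 9.29 and 9.16 in DKO. Stab2KO lay above and DKO below all other arrays, within a narrow range. H2-M3 was -0.34 ± 0.07 in DKO against Stab2KO (limma adjusted p = 0.034).

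The other 5 class I genes named here had the highest means among those neither classical nor called. H2-Q4 was 10.20 to 10.63 in WT, 10.55 to 10.73 in Stab1KO, 9.92 to 10.22 in Stab2KO and 10.18 to 10.99 in DKO. H2-Q10, known as a secreted class I chain of the liver, was 7.52 to 7.81 in WT and 8.10 to 8.32 in DKO, a difference of 0.60 ± 0.25 that was not called (limma adjusted p = 0.27), while hepatocyte markers averaged 8.18 to 9.31 in WT and 8.30 to 9.30 in DKO. H2-K2 ranged from 8.01 to 8.92, H2-T24 from 9.15 to 9.74 and H2-Q2 from 5.32 to 6.57, all with overlapping genotypes except H2-Q2 in DKO against WT. Another 14 class I genes, most of the M genes among them, had means below the array median of 5.12, between 3.40 and 4.999. They differed from WT by at most 0.77, and their values hold an unknown share of background.

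Counts over the 49 genes were read against all genes. In Stab1KO against WT 0 were called, where 0.308% of all 24011 were; 6 (12.2%) had an unadjusted p under 0.05, beside 3.91% of all. In Stab2KO against WT 3 were called (6.12%), beside 0.296% of all: 1 higher beside 0.0833%, and 2 lower beside 0.212%. In DKO against WT 2 were called (4.08%), beside 1.8% of all: both higher, beside 0.754%, and 0 lower, beside 1.05%. Class I genes had a median difference of 0.10 in Stab1KO, -0.02 in Stab2KO and 0.10 in DKO, and 20, 11 and 18 of the 28 lay above 0; the medians of all symbols were 0.01, 0.01 and -0.02.

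Among the knockouts, DKO against Stab2KO gave 7 calls (14.3%), beside 3.42% of all genes. Of these, 5 were higher (H2-Q5, H2-Q6, H2-Q7, H2-T22 and H2-T23), beside 1.3% of all, and 2 lower (H2-M3 and H2-Oa), beside 2.12%. Stab1KO against Stab2KO gave 2, beside 0.108% of all: both higher, H2-Q7 and H2-T23, beside 0.0583%, and 0 lower, beside 0.05%. DKO against Stab1KO gave 0, beside 0.945% of all, with 4 (8.16%) at an unadjusted p under 0.05, beside 16.2% of all.

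Whether the loss of both receptors equals the sum of the single losses was tested as a departure from additivity, the effect of Stab1 loss without Stab2 minus that with Stab2. None of the 49 was called, beside 0.05% of all genes, and 13 (26.5%) had an unadjusted p under 0.05, beside 12.5% of all. H2-T22 had the highest value of all symbols, 3.95 ± 1.00 (limma adjusted p = 0.15). The values were 1.56 ± 0.50 for H2-Q5 (adjusted p = 0.23), 1.54 ± 0.23 for H2-Q7 (adjusted p = 0.054) and 1.21 ± 0.22 for H2-T23 (adjusted p = 0.076). Without DKO replicate 3, H2-Q7 (1.76, adjusted p = 0.0014), H2-T23 (1.28, adjusted p = 0.049) and H2-Q5 (2.00, adjusted p = 0.048) were called. The share of all genes called for the departure without that array is not given here.

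In the class I machinery, Tap1 encodes a subunit of the peptide transporter. It measured 9.77, 9.77 and 9.69 in WT, 10.04, 9.86 and 9.92 in Stab1KO, 10.08, 9.90 and 9.96 in Stab2KO, and 10.22, 10.48 and 10.10 in DKO. All 9 knockout arrays lay above WT and all DKO arrays above the single knockouts. Tap1 rose by 0.52 ± 0.10 in DKO against WT (limma adjusted p = 0.030), with 0.20 in Stab1KO and 0.24 in Stab2KO, not called.

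Tap2, the partner subunit, ranged from 9.07 to 9.31, with both single knockouts above WT and DKO overlapping it. The immunoproteasome subunit gene Psmb9 measured 8.54 to 8.64 in WT, 8.67 to 8.85 in Stab1KO, 8.86 to 8.93 in Stab2KO and 8.73 to 8.95 in DKO. All knockout arrays of Psmb9 lay above WT, by 0.17, 0.29 and 0.24, none called. Psmb8 was 0.32 ± 0.11 above WT in Stab2KO (adjusted p = 0.46 by limma). Psmb10 was 10.15, 10.13 and 9.71 in DKO, all below the WT values of 10.29, 10.31 and 10.23 (difference -0.28 ± 0.12, limma adjusted p = 0.26; -0.14 without DKO replicate 3).

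Tapbp encodes tapasin, which holds class I chains at the transporter; it ranged from 11.21 to 11.47 with all genotypes overlapping. B2m, the light chain, ranged from 13.76 to 13.87. In 5 arrays no gene had a higher value, so a difference there could be hidden by the upper end of the scale. The transactivator gene Nlrc5 measured 7.004, 7.20 and 6.90 in WT, 7.40, 7.13 and 7.07 in Stab1KO, 6.77, 6.74 and 6.91 in Stab2KO, and 7.41, 7.69 and 6.56 in DKO. Its DKO replicates 1 and 2 were the highest and replicate 3 the lowest of the series, and no difference from WT was called. The median of the 8 machinery genes against WT was 0.13 in Stab1KO, 0.16 in Stab2KO and 0.06 in DKO, with 7 of 8 above 0 each time.

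**Figure D3:**
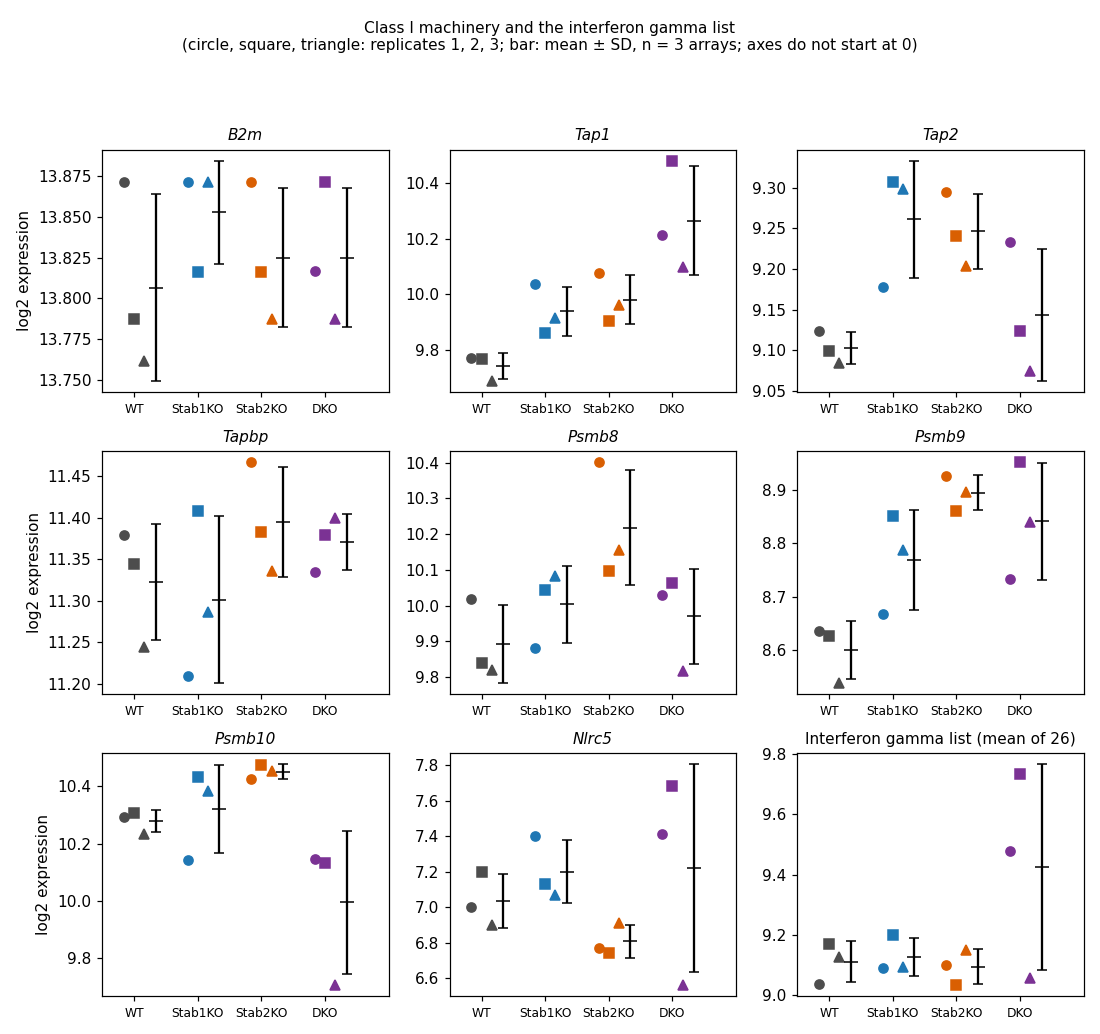
Log2 expression of the 8 class I machinery genes in each array by genotype, and the mean of 26 interferon gamma pathway genes; circle, square and triangle are replicates 1, 2 and 3, bars give mean ± SD of 3 arrays, and axes do not start at 0. Tap1 was highest in DKO, while Nlrc5 and the interferon gamma mean were high in DKO replicates 1 and 2 and low in replicate 3.

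Interferon gamma is the best known inducer of class I genes, and 26 of 30 listed pathway and target genes were measured. None was called in any of the 7 comparisons with all arrays. Without DKO replicate 3, Irgm1 (0.98, limma adjusted p = 0.0069), Iigp1 (1.57, adjusted p = 0.0073) and Irf1 (1.11, adjusted p = 0.026) were called in DKO against WT. In that fit 1.77% of all genes were called. The mean of the 26 genes was 9.48 and 9.74 in DKO replicates 1 and 2 and 9.06 in replicate 3. In the other genotypes it was 9.03 to 9.20. The median difference from WT was 0.05 in Stab1KO, -0.01 in Stab2KO and 0.30 in DKO, where 20 of 26 lay above 0. Without DKO replicate 3 the DKO median was 0.46, again with 20 above 0. With all arrays, the largest DKO values, none called, were in the GTPase genes Iigp1 (1.08) and Igtp (0.85) and the chemokine gene Cxcl10 (1.07). In Stab1KO they were in Cxcl11 (-0.41), Cxcl10 (-0.40) and Irgm2 (0.29), and in Stab2KO in Jak2 (-0.35), Cxcl11 (-0.34) and Ifng (0.27).

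The wider list of antigen processing and costimulation genes held 40 measured of 44. Called against WT was 1 gene: Fcgrt, the neonatal Fc receptor, fell by 0.33 ± 0.07 in DKO (limma adjusted p = 0.048), where 1.8% of all genes were called. It was also called in DKO against Stab2KO (-0.36, adjusted p = 0.031), and the call against WT was lost without DKO replicate 3 (-0.27, adjusted p = 0.098). The medians were -0.03, -0.03 and -0.05 in Stab1KO, Stab2KO and DKO. Among genes not called, the largest values were Cd40 (-0.37), Icosl (0.35) and Cd80 (0.28) in Stab1KO. In Stab2KO they were the lysosomal protease gene Ctss (-1.11), the thiol reductase gene Ifi30 (-0.73) and Icosl (0.56), and in DKO the costimulatory genes Cd80 (1.79) and Icosl (0.80) and the inhibitory ligand gene Cd274 (0.47). Cd80 measured 5.72, 6.24 and 9.52 in DKO, and without replicate 3, the highest, its difference was 0.61 and that of Icosl 0.49. Ctss and Ifi30 are also abundant in macrophages, and the mean of 11 Kupffer cell markers was 7.20 to 7.64 in Stab2KO against 7.54 to 9.69 in WT; their part in these values was not tested.

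For class II, none of the 12 genes was called against WT in any knockout; 1, 3 and 0 had an unadjusted p under 0.05 in Stab1KO, Stab2KO and DKO, where 3.91%, 7.62% and 16.7% of all genes did. H2-Aa, the alpha chain of the I-A molecule, measured 9.10, 10.39 and 10.23 in WT, 9.58, 9.58 and 10.15 in Stab1KO, 9.73, 9.94 and 9.90 in Stab2KO, and 9.61, 10.31 and 10.37 in DKO. Its partner H2-Ab1 measured 9.58, 10.71 and 10.60 in WT and ranged from 9.95 to 10.99 in the knockouts. Cd74 measured 10.31, 11.44 and 11.32 in WT and ranged from 10.43 to 11.38 in the knockouts. In each of these 3 genes WT replicate 1 was the lowest array of all 12. In that pool Kupffer markers averaged 7.54, B cell markers 5.60 and dendritic cell markers 5.45, each the lowest of the 3 WT pools. Over all 12 arrays, the Kupffer mean was lower in Stab2KO replicate 1 (7.20). The B cell mean was lower in Stab1KO replicate 2 (5.55) and, slightly, in DKO replicate 3 (5.60). H2-Aa measured 9.73, 9.58 and 10.37 in those arrays.

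The part of those cells in the class II values was not tested. The differences from WT were -0.14, -0.05 and 0.19 ± 0.32 for H2-Aa in Stab1KO, Stab2KO and DKO. For H2-Ab1 they were -0.01, -0.08 and 0.28 ± 0.30, and for Cd74 -0.30, -0.12 and 0.10 ± 0.29. Without DKO replicate 3, the DKO values fell to 0.06 for H2-Aa, 0.07 for H2-Ab1 and -0.02 for Cd74. H2-Eb1, the I-E beta chain, ranged from 7.95 to 9.14. H2-Ea, its partner, which C57BL/6 mice are known not to express, ranged from 3.55 to 3.99, and H2-Eb2 from 3.60 to 4.29; both had means below the array median.

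H2-Oa and H2-Ob form H2-DO, the inhibitor of H2-DM found mainly in B cells. The region shown before the H2-Oa start, chr17:34092129-34092378 on the plus strand, holds ATTGG (capitals) and neither GAAANNGAA nor GAANNGAAA.
H2-Oa: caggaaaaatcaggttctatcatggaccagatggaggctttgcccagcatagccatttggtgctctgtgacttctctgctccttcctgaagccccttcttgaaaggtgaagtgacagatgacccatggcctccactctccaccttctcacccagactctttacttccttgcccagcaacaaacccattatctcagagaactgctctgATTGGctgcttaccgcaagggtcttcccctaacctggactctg

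H2-Oa measured 5.21, 5.23 and 5.50 in WT, 5.41, 5.24 and 5.57 in Stab1KO, 6.04, 5.90 and 5.81 in Stab2KO, and 5.29, 5.31 and 5.45 in DKO. The Stab2KO arrays lay above the other 9. H2-Oa was 0.60 ± 0.11 higher in Stab2KO than in WT, which was not called (limma adjusted p = 0.068), and -0.57 ± 0.11 in DKO against Stab2KO (adjusted p = 0.029). H2-Ob likewise had its highest 3 values, 6.14, 5.91 and 6.15, in Stab2KO (0.34 ± 0.12 above WT, limma adjusted p = 0.51). The 9 measured B cell markers of 10 averaged 6.03 to 6.30 in Stab2KO, 5.60 to 6.26 in WT and 5.60 to 5.88 in DKO, and their part in the H2-Oa values was not tested.

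Of the H2-DM genes, which encode the peptide exchanger, H2-DMa ranged from 5.45 to 6.47 and H2-DMb1 from 5.69 to 6.99, with overlapping genotypes. H2-DMb2 was 7.37, 8.26 and 8.47 in WT and 8.62, 8.96 and 8.34 in Stab2KO, a difference of 0.61 ± 0.30 that was not called. H2-DMb1 and H2-DMb2 are near-identical copies and may share signal. Ciita ranged from 5.51 to 6.09, with Stab1KO above WT by 0.26 ± 0.11 (limma adjusted p = 1). The class II medians against WT were -0.06, 0.08 and 0.10, with 5, 8 and 11 of 12 genes above 0. In DKO this count rested on replicate 3: without that array 6 of 12 lay above 0, with a median of 0.02. H2-Ke6 differed from WT by 0.11, 0.20 and 0.04.

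**Figure D4:**
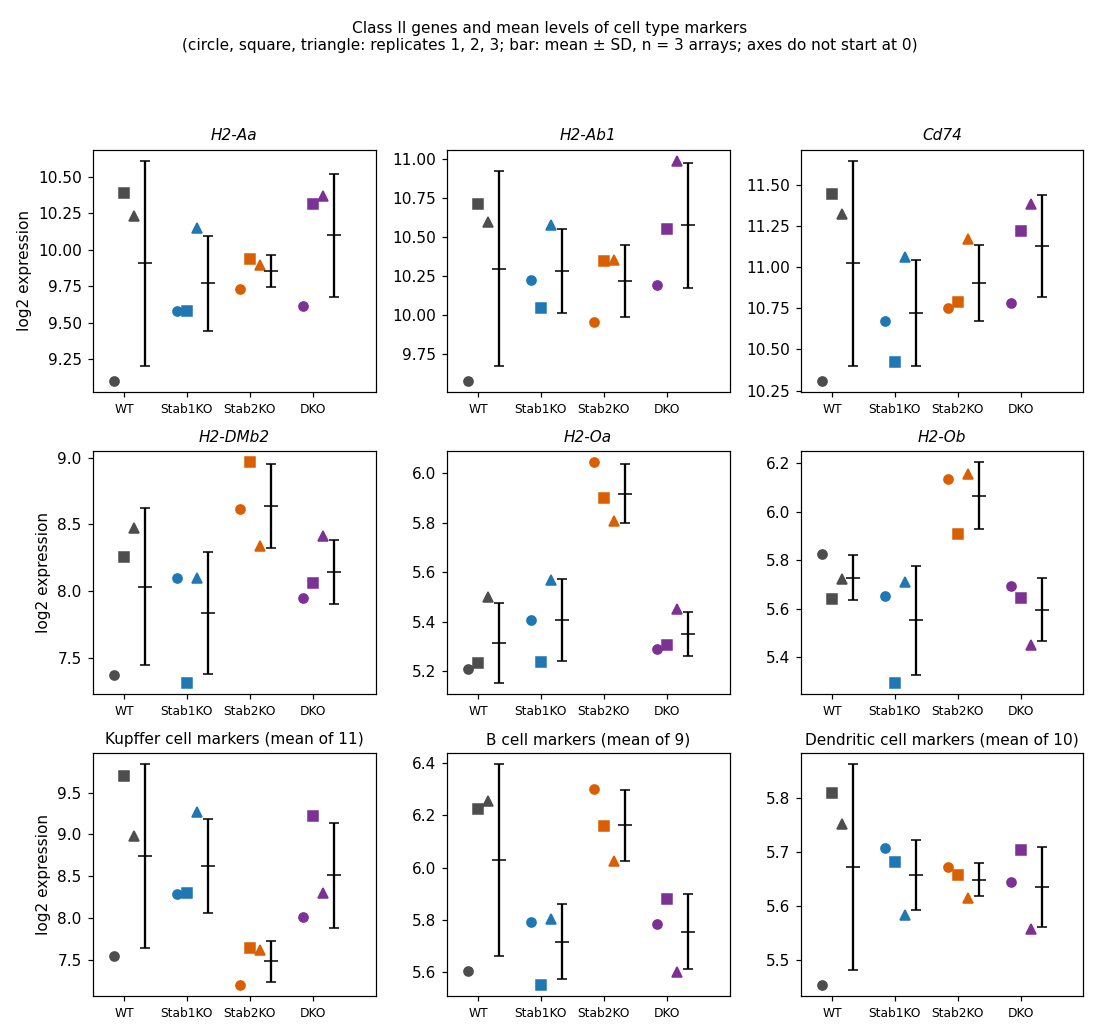
Log2 expression of H2-Aa, H2-Ab1, Cd74, H2-DMb2, H2-Oa and H2-Ob in each array by genotype, with the mean level of Kupffer cell, B cell and dendritic cell markers; circle, square and triangle are replicates 1, 2 and 3, bars give mean ± SD of 3 arrays, and axes do not start at 0. WT replicate 1 was lowest for H2-Aa, H2-Ab1 and Cd74, and the 3 Stab2KO arrays were highest for H2-Oa and H2-Ob.

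The order of genes along chromosome 17, taken from the RefSeq annotation of GRCm38.p6, placed 147 measured genes that are not of the set between its outermost members. B2m lies on chromosome 2, Nlrc5 and Psmb10 on chromosome 8, Ciita on chromosome 16 and Cd74 on chromosome 18. In Stab2KO against WT, 3 of the 44 members there were called (6.82%), 1 of the 147 others (0.68%), 0.318% of the rest of the chromosome and 0.28% of genes elsewhere. The median size of the difference was 0.21, 0.12, 0.10 and 0.09 in these 4 sets. The 1 other gene was Msh5, a meiotic recombination gene, at 6.57, 6.33 and 6.28 in WT and 9.34, 8.75 and 8.97 in Stab2KO. All 3 Stab2KO arrays exceeded all others, and the rise was 2.63 ± 0.28 (limma adjusted p = 0.0044).

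Elsewhere in the interval, the complement gene C2 rose by 0.67 ± 0.09 in Stab1KO (limma adjusted p = 0.0083) and the stress gene Ier3 by 1.05 ± 0.20 in DKO (adjusted p = 0.027). In DKO against Stab2KO 9 of the 147 were called (6.12%), beside 3.38% elsewhere in the genome. Higher were Cfb (0.72), C2 (0.73), Ddr1 (0.95), Gm8801 (0.92) and Rnf39 (0.48), and lower were Msh5 (-2.79), Ddah2 (-0.63), Ppp1r11 (-0.60) and Tubb5 (-0.34). Whether the pools carried the same MHC haplotype was not tested.

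**Figure D5:**
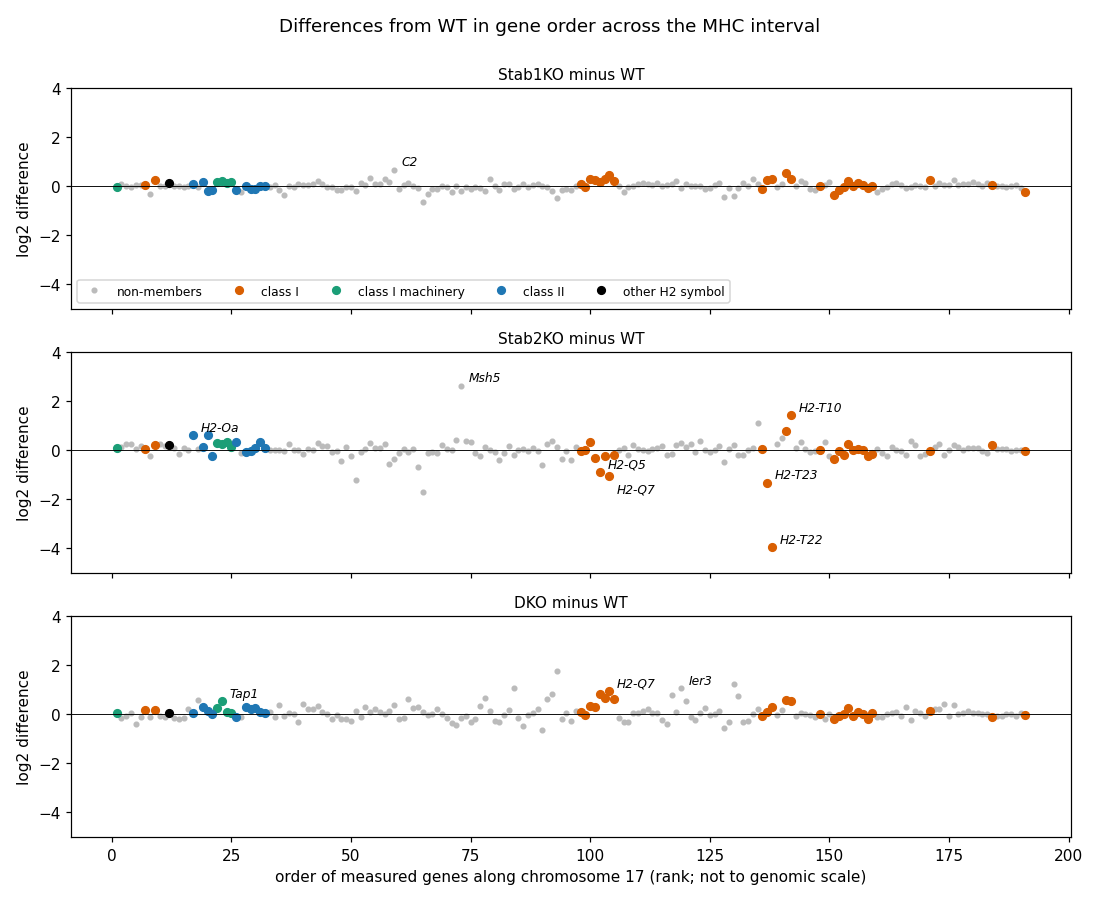
Log2 difference from WT (vertical axis) for Stab1KO, Stab2KO and DKO, with the measured genes of the MHC interval in their order on chromosome 17 (horizontal axis, ranks and not distances); colours mark the class of each gene and grey points are other genes. The Stab2KO panel holds the most extreme points, H2-T22 at -3.97 and Msh5 at 2.63.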

How the data were processed

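RNA of bead-isolated LSECs was measured on 12 Affymetrix arrays. The deposited log2 values were made by the authors with RMA, per the submitters' processing notes; neither its version nor the genome build is given in the sources used here. RMA normalizes by quantiles, which removes any shift common to all genes, and no detection calls were used. Platform annotation named 24015 of 24973 rows, and the row with the highest mean was kept per symbol. Limma 3.58.1 (R 4.3.3) fitted 4 group means to all 12 arrays; 7 contrasts were tested without trend or robust options. On simulated data for Stab2KO against WT (24011 genes), it recovered 38% of genes changed by 0.5 log2, 89% by 1 and 96% by 2, with 10 false among 166 calls. The simulated noise was normal, independent between genes and equal in all genotypes, with no outlying array. These recovery rates therefore need not hold for the real arrays. The number of arrays limits the precision.

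Named with values were the classical class I, B2m, class II and machinery genes, every called member, and the 5 other class I genes of highest mean. Of the pathway lists, called genes and the 3 largest differences were named. The members and lists were chosen with earlier results of these data known. The samples were treated as unpaired. Correlations of same-numbered deviations ran from -0.06 to 0.29, but differently numbered arrays were not compared, so pairing itself was not tested.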

Additional observations from a re-analysis of the deposited data

Results flagged for a closer look

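For 5 genes every array after loss of a receptor lay on one side of the mean of its control genotype when the other receptor was present, and on the opposite side when it was absent. The arrays themselves overlapped in some of these comparisons, for H2-Q7 and Psmb10 in DKO against Stab1KO and for Tap2 in DKO against either single knockout, and no departure from additivity was called by limma. That departure was 1.54 for H2-Q7 (adjusted p = 0.054), which was -1.05 after Stab2 loss with Stab1 present and 0.49 without Stab1. For H2-T10 the departure was -1.17 (adjusted p = 0.16), with 0.27 after Stab1 loss where Stab2 was present and -0.90 where it was not. For H2-M3 it was -0.39 (adjusted p = 0.15), for Psmb10 -0.50 (adjusted p = 0.25) and for Tap2 -0.26 (adjusted p = 0.30). The change of side itself was not tested. The share of all measured genes with such a change of side is not given here. The count of 5 genes therefore has no background to be read against, and no conclusion is drawn from it.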

How the results depend on the processing

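The 14 calls of single genes were recomputed under 18 alternatives each (252 values): 188 kept the call, 64 lost it and 0 reversed. H2-T23 in Stab2KO against WT and H2-Q7 in Stab1KO against Stab2KO were called in all 18. With each array left out in turn, the number of genes called ranged from 1 to 3 in Stab2KO against WT, 0 to 4 in DKO against WT, 0 to 2 in DKO against Stab1KO, 3 to 8 in DKO against Stab2KO and 0 to 3 for the departure from additivity. H2-Q7 in Stab2KO against WT lost its call without any 1 WT or Stab2KO array or Stab1KO replicate 2, and H2-T10 there without any 1 WT array, Stab1KO replicate 2 or 3, Stab2KO replicate 1 or 2, or DKO replicate 1. In DKO against WT, H2-Q7 lost it without WT replicate 2 or 3 or DKO replicate 1 or 2, and Tap1 without any 1 WT array or DKO replicate 1 or 2. In DKO against Stab2KO, the calls of H2-M3 and H2-Q6 were each lost in 10 of 18 alternatives, H2-Q5 in 7, H2-Oa in 6, and H2-Q7, H2-T22 and H2-T23 in 1, the fit of only the compared arrays. With only the compared arrays fitted, 0 genes were called in DKO against WT, 0 in DKO against Stab2KO and 1 in Stab1KO against Stab2KO, while all-gene calls fell to 97, 4 and 15, and those in Stab2KO against WT to 29. For the departure, the low-signal filter gave 1 (H2-Q7) and trend and robust options 2 (H2-Q7 and H2-T23). With a replicate block, 3 of the 49 genes were called in Stab2KO against WT and 2 in DKO against WT. In DKO against Stab2KO 7 were called, where H2-T10 (-0.90, adjusted p = 0.039 by limma) replaced H2-Q6. The share of all genes called with that block is not given here. The class I median in Stab1KO against WT was 0.23 after the low-signal filter.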
